A study of Mus musculus with 2 samples.

Results

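Hox genes encode homeodomain transcription factors and lie in 4 chromosomal clusters, HoxA to HoxD, whose members are numbered by paralogue group from 1 to 13. Along a cluster the order of the genes follows their expression along the body axis, so that low numbers mark hindbrain and neck and high numbers mark trunk and tail. In the limb bud, HoxA and HoxD genes of groups 9 to 13 pattern the skeleton from shoulder to digits, HoxC genes of the high groups are tied to the hindlimb, and the low groups are known mainly from hindbrain, spinal cord, somites and flank. The genes were read in whole limb buds of C57BL/6 mouse embryos at E10.5, on 1 array of Bhlha9 knockout and 1 array of wild-type tissue. Bhlha9 encodes a basic helix-loop-helix factor linked in humans to limb malformation. The sources used here do not give how the allele was made, how many embryos gave each RNA or how fore and hind limb buds were mixed. The members were all probe sets with a single annotated symbol made of Hox, a cluster letter and a number, which gave 48 of 45037 probe sets and 33 of 18193 genes.

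With 1 array per genotype no test was possible, values carry no error between embryos, and "higher" and "lower" refer to these arrays alone. Values are MAS 5.0 signals on a linear scale, and a log2 ratio is knockout over wild-type. Signals under 41.8 on the knockout array and 41.2 on the wild-type array, the 40th percentile of each, were treated as not detected and raised to that floor, so a ratio with 1 side at the floor is a bound. Each gene was read from its brightest probe set. Over 5440 genes, the disagreement between probe sets of the same gene corresponded to an SD of 0.28 for 1 log2 ratio, which leaves out differences between embryos and RNA preparations. The probe set of Bhlha9 gave 1.70 on the knockout array and 7.87 on the wild-type array, both under the floor, so it does not check the labels. In RNA from whole tissue, fewer cells of a type and less RNA per cell cannot be told apart.

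Hox genes of low paralogue number were mostly higher on the knockout array and those of high number mostly lower. Of the 33 genes, 28 were detected on both arrays, 2 on the wild-type array only and 3 on neither. Of the 30 detected genes, 7 were at least 2-fold higher, where 4.15% of all detected genes were (7 genes are 23.3%), and 4 were at least 2-fold lower, where 2.65% of all detected genes were (4 genes are 13.3%). By probe sets, 43 of 48 were detected, and 10 of these were at least 2-fold higher, beside 3.22% of all detected probe sets, and 6 at least 2-fold lower, beside 4.51%. The median log2 ratio of the 30 genes was 0.020, close to the 0.0072 of all detected genes, with 16 positive and 14 negative ratios.

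**Figure D1:**
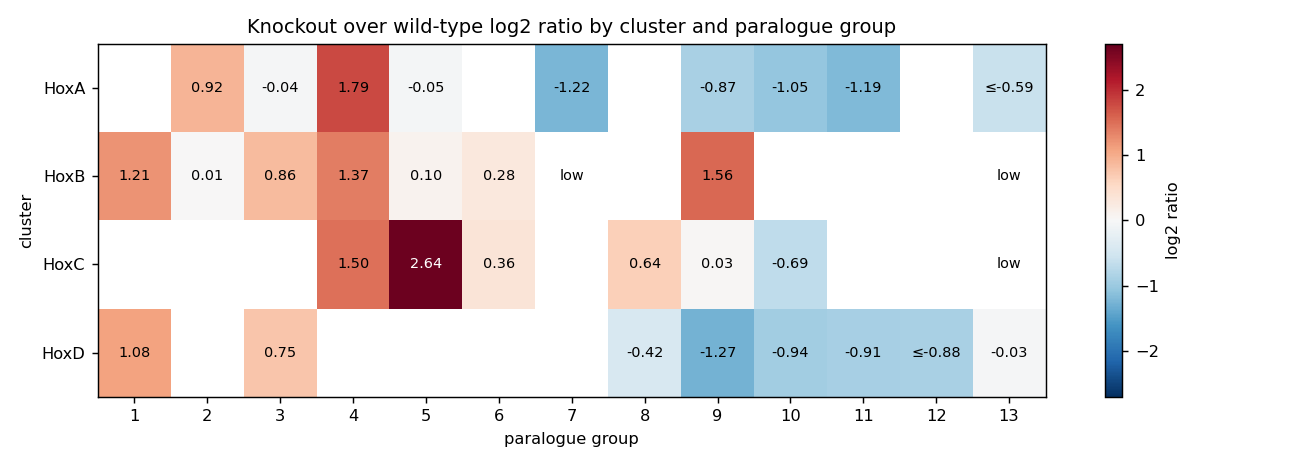
Log2 ratio of knockout over wild-type signal by cluster (down) and paralogue group (across), from the brightest probe set of each gene. Red is higher and blue lower on the knockout array, "low" marks genes under the floor on both arrays, the sign ≤ marks a bound, and empty cells have no ratio here; group 4 is red in every measured cluster, and groups 10 and 11 are blue in every measured cluster.

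Split by number, the 10 detected genes of groups 1 to 4 had a median log2 ratio of 0.998, with 9 positive and 5 at least 2-fold higher. The 8 detected genes of groups 5 to 8 had a median of 0.19, with 1 gene at least 2-fold higher and 1 at least 2-fold lower. Among the 12 detected genes of groups 9 to 13 the median was -0.88, with 10 negative, 3 at least 2-fold lower and 1 at least 2-fold higher. Hoxa13 and Hoxd12 were detected on the wild-type array alone and could only be negative, and over the other 10 the median was -0.89. Across the 30 genes the paralogue number and the ratio had a Spearman correlation of -0.65, a description of genes that share the same pair of arrays. Within clusters it was -0.68 for 9 HoxA genes, -0.89 for 6 HoxC genes, -0.40 for 8 HoxD genes and 0.29 for 7 HoxB genes. Hoxb9 was the only detected HoxB gene of groups 9 to 13, so the order over the high groups could not be read in HoxB.

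**Figure D2:**
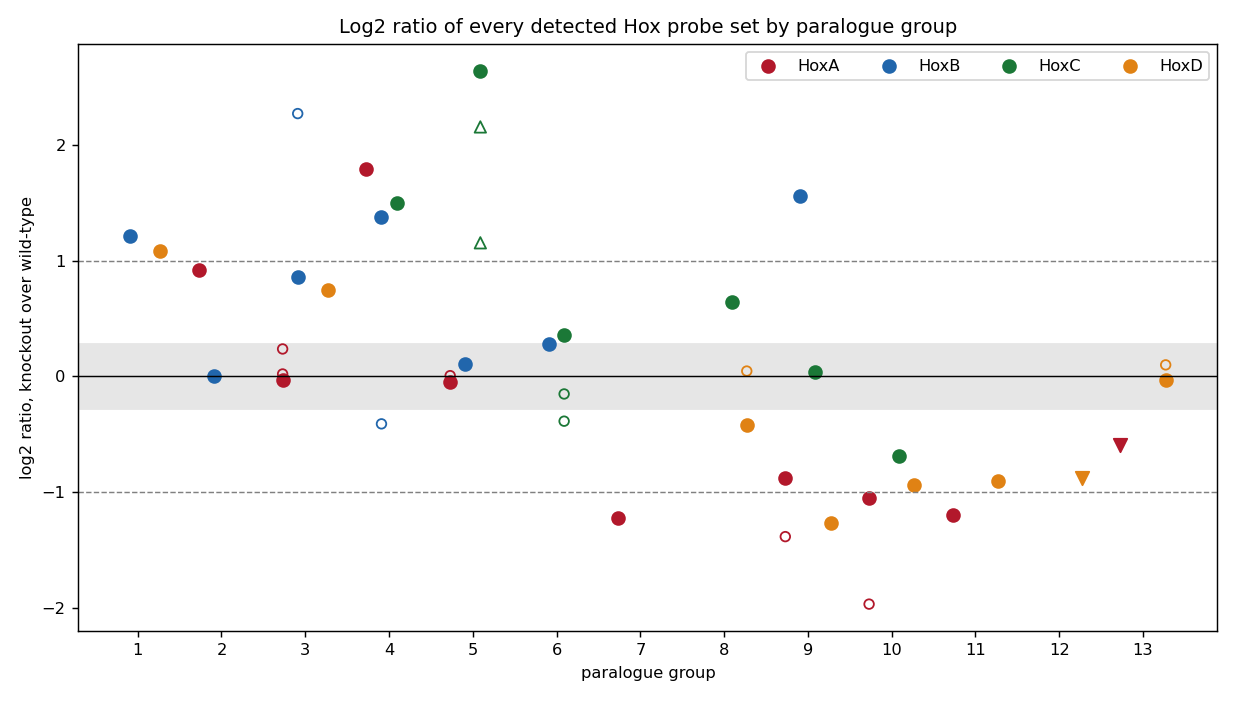
Log2 ratio of each detected Hox probe set (y axis) by paralogue group (x axis), coloured by cluster. Filled points are the brightest probe set of a gene, open points its other probe sets, triangles are bounds, dashed lines mark 2-fold and the grey band is 1 SD of the spread between probe sets of a gene (0.28); the high groups lie mostly under zero except Hoxb9 at 1.56.

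Group 1 was read through Hoxb1 and Hoxd1. Hoxb1, which sets the identity of a hindbrain segment, gave 182 on the knockout array and 78.6 on the wild-type array, a log2 ratio of 1.21. Hoxd1 gave 268 on the knockout array and 127 on the wild-type array, a ratio of 1.08. Both wild-type signals were low, and neither gene stayed past 2-fold with a floor at the 60th percentile, where the ratios were 0.11 and 0.67, or with a pseudocount of 32, where they were 0.95 and 0.92.

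The promoter of Hoxb1 is shown because it holds a textbook target of Hox proteins themselves, a Pbx and Hox site through which the gene maintains its own expression in the hindbrain. The window runs from 250 bases before to 50 after the start, chr11:96365508-96365807 on the plus strand of GRCm38.p6, from RefSeq. Capitals mark TGATNNAT, a Pbx and Hox motif, and CANNTG, the E-box that basic helix-loop-helix factors bind, on either strand. The capitals CACATGTG hold overlapping E-boxes.
Hoxb1: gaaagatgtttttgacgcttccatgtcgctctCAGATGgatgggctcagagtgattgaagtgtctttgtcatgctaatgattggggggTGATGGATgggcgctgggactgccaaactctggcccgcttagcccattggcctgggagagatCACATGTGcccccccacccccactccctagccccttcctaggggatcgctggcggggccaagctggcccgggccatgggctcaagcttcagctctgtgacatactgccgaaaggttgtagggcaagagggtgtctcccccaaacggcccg
The letters TGATNNAT were in 8.85% of all 32851 promoter windows and in 3 of 21 windows of the Hox genes described here, and CANNTG in 72.3% of all windows and 15 of those 21. The 21 windows belong to 19 of the 33 genes, and a match is a description of letters only.

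Group 2 gave unequal readings. Hoxa2, required for the second pharyngeal arch and the hindbrain, was at 257 on the knockout array and 136 on the wild-type array, a log2 ratio of 0.92. Hoxb2, which acts in the hindbrain, was level at 516 on the knockout array and 514 on the wild-type array. The difference for Hoxb2 lay well within the spread between probe sets.

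In group 3, 2 of 3 genes had log2 ratios between 2 SD of the spread between probe sets, taken over all genes, and the 2-fold threshold. The spread is wider for dim genes. Hoxb3 gave 2009.9 on the knockout array and 1107 on the wild-type array, a log2 ratio of 0.86, and its dimmer probe set gave 397 on the knockout array and 82.3 on the wild-type array, a larger ratio of 2.27. Hoxd3 gave 389 on the knockout array and 232 on the wild-type array, a ratio of 0.75. Hoxa3, needed for thymus and parathyroid, was level at 352 on the knockout array and 360 on the wild-type array. Its other detected probe sets, at 0.24 and 0.020, were also within the spread, and its sign turned with every rescaling of the arrays.

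In group 4, as in group 1, every measured gene was at least 2-fold higher. Group 4 genes pattern the neck vertebrae. Hoxa4 gave 151 on the knockout array and 43.7 on the wild-type array, a log2 ratio of 1.79, with the wild-type signal just above the floor. Hoxb4 gave 321 on the knockout array and 124 on the wild-type array, a ratio of 1.37, whereas its dimmer probe set gave 73.4 on the knockout array and 97.5 on the wild-type array, a ratio of -0.41. The call for Hoxb4 was therefore not made by the mean of its probe sets, 0.48. Hoxc4 was at 1665 on the knockout array and 590 on the wild-type array, a ratio of 1.497.

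Hoxc5 had the highest ratio of all Hox genes, and only 0.148% of all genes detected on both arrays had a higher one. Its brightest probe set gave 1702 on the knockout array and 273 on the wild-type array, a log2 ratio of 2.64, or 6.24-fold. Its other probe sets did not detect it in wild-type tissue. They gave 183 and 91.6 on the knockout array and bounds of at least 4.45-fold and at least 2.22-fold higher. Detected on the knockout array alone, they could only read higher. With Hoxa5, Hoxc5 is known for its role in the motor neurons of the phrenic nerve.

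The other genes of group 5 did not share this reading. Hoxa5, which acts in lung, sternum and neck, gave 1527 on the knockout array and 1579 on the wild-type array, a log2 ratio of -0.048, and its second probe set gave 876 on the knockout array and 873 on the wild-type array. Hoxb5, tied to the position of the forelimb along the flank, gave 283 on the knockout array and 263 on the wild-type array, a ratio of 0.10. Both lay within the spread between probe sets, and the sign of Hoxa5 turned with median centring.

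Groups 6 to 8 were mixed. Hoxb6 was at 373 on the knockout array and 307 on the wild-type array, a log2 ratio of 0.28. Hoxc6, expressed at the level of the forelimb, was at 176 on the knockout array and 137 on the wild-type array, a ratio of 0.36, but its other probe sets gave -0.15 and -0.39, so its direction was not settled. Hoxc8, which acts in motor neurons of the lower neck and the trunk skeleton, gave 1300.3 on the knockout array and 833 on the wild-type array, a ratio of 0.64. Hoxd8 went the other way by its brightest probe set, 1431 on the knockout array and 1920.3 on the wild-type array, a ratio of -0.42, while its other probe set was at 0.046.

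Hoxa7 was the lower gene of these central groups. It gave 96.6 on the knockout array and 226 on the wild-type array, a log2 ratio of -1.22, and it has 1 probe set. With a floor at the 60th percentile its ratio was -0.56, under the 2-fold threshold. In HoxA the sign thus changed between Hoxa4 and Hoxa7, with Hoxa5 level between them.

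Group 9 held the widest split between clusters. The group acts together in the forelimb bud to set up its posterior side. Hoxa9 gave 5960.5 on the knockout array and 10931 on the wild-type array, a log2 ratio of -0.87, and its second probe set gave 758 on the knockout array and 1979 on the wild-type array, a ratio of -1.38. Hoxd9 gave 1839.7 on the knockout array and 4438 on the wild-type array, a ratio of -1.27, the lowest by brightest probe set among Hox genes detected on both arrays. Hoxc9, a regulator of thoracic motor neuron identity, was level at 401 on the knockout array and 391 on the wild-type array. Hoxb9 was the exception among the high groups, at 518 on the knockout array and 176 on the wild-type array, a ratio of 1.56 or 2.94-fold higher. Its direction was the same at every setting tried, and it has 1 probe set.

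Groups 10 and 11, which shape the upper and lower segments of the limb, were lower in every measured member. Hoxa10 gave 1936 on the knockout array and 4005 on the wild-type array, a log2 ratio of -1.05, and its second probe set gave 161 on the knockout array and 628 on the wild-type array, a ratio of -1.97. Median centring placed the first of these at -0.99, just inside the 2-fold threshold. Hoxd10 gave 1969.6 on the knockout array and 3780.0 on the wild-type array, a ratio of -0.94. Hoxc10, a gene of the hindlimb rather than the forelimb, gave 516 on the knockout array and 832 on the wild-type array, a ratio of -0.69. Hoxa11, required for the forearm and lower leg, gave 508 on the knockout array and 1163 on the wild-type array, a ratio of -1.19. Hoxd11, its partner in that role, gave 172 on the knockout array and 323 on the wild-type array, a ratio of -0.91.

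The promoters of Hoxd9 and Hoxa11 are shown because by brightest probe set they were the lowest HoxD and HoxA genes of groups 9 to 13 among those detected on both arrays, and that of Hoxc4 as a higher gene of HoxC. All are windows of the same span from RefSeq on GRCm38.p6, at chr2:74697513-74697812 on the plus strand for Hoxd9, chr6:52245761-52246060 on the minus strand for Hoxa11 and chr15:103034145-103034444 on the plus strand for Hoxc4. Capitals mark CANNTG, and TGATNNAT was in none of the 3 windows.
Hoxd9: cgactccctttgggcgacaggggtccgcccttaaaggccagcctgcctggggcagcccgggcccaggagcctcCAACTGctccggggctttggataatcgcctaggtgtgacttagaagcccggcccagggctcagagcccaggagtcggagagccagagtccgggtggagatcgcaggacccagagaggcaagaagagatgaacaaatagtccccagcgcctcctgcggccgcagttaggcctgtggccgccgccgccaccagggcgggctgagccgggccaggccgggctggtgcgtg
Hoxa11: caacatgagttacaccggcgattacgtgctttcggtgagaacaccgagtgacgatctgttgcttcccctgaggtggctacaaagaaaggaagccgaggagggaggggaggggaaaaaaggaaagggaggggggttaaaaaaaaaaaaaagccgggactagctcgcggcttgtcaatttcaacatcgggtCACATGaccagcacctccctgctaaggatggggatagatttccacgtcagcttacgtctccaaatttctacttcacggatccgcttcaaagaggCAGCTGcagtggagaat
Hoxc4: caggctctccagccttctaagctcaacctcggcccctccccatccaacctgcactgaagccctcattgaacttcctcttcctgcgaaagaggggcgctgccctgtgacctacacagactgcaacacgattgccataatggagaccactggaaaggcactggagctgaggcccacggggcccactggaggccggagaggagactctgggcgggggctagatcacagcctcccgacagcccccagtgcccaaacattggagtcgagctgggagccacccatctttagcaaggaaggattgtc
Hoxd9 held 1 E-box, Hoxa11 held 2 and Hoxc4 held 0, against 3 in Hoxb1. Among other genes past 2-fold, the windows of Hoxa10 and Hoxa7, both lower, held 0. Those of Hoxb4 and Hoxd1, both higher, held 1 each. The windows are few and CANNTG is common, so no relation to direction can be read from them.

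The genes of groups 12 and 13, which pattern the digits, were near the floor or level. Hoxd12 gave 36.0 on the knockout array, under the floor, and 76.6 on the wild-type array, at least 1.83-fold lower. Hoxa13 gave 17.7 on the knockout array, under the floor, and 63.0 on the wild-type array, at least 1.51-fold lower. With a floor at the 20th percentile its log2 ratio was -1.83. Hoxd13, by contrast, was bright and level, at 1420.5 on the knockout array and 1448 on the wild-type array, and its dim probe set gave 62.0 on the knockout array and 57.9 on the wild-type array. Within HoxD the genes from Hoxd9 to Hoxd12 were thus lower while Hoxd13, at the end of the row, did not differ beyond the spread between probe sets.

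**Figure D3:**
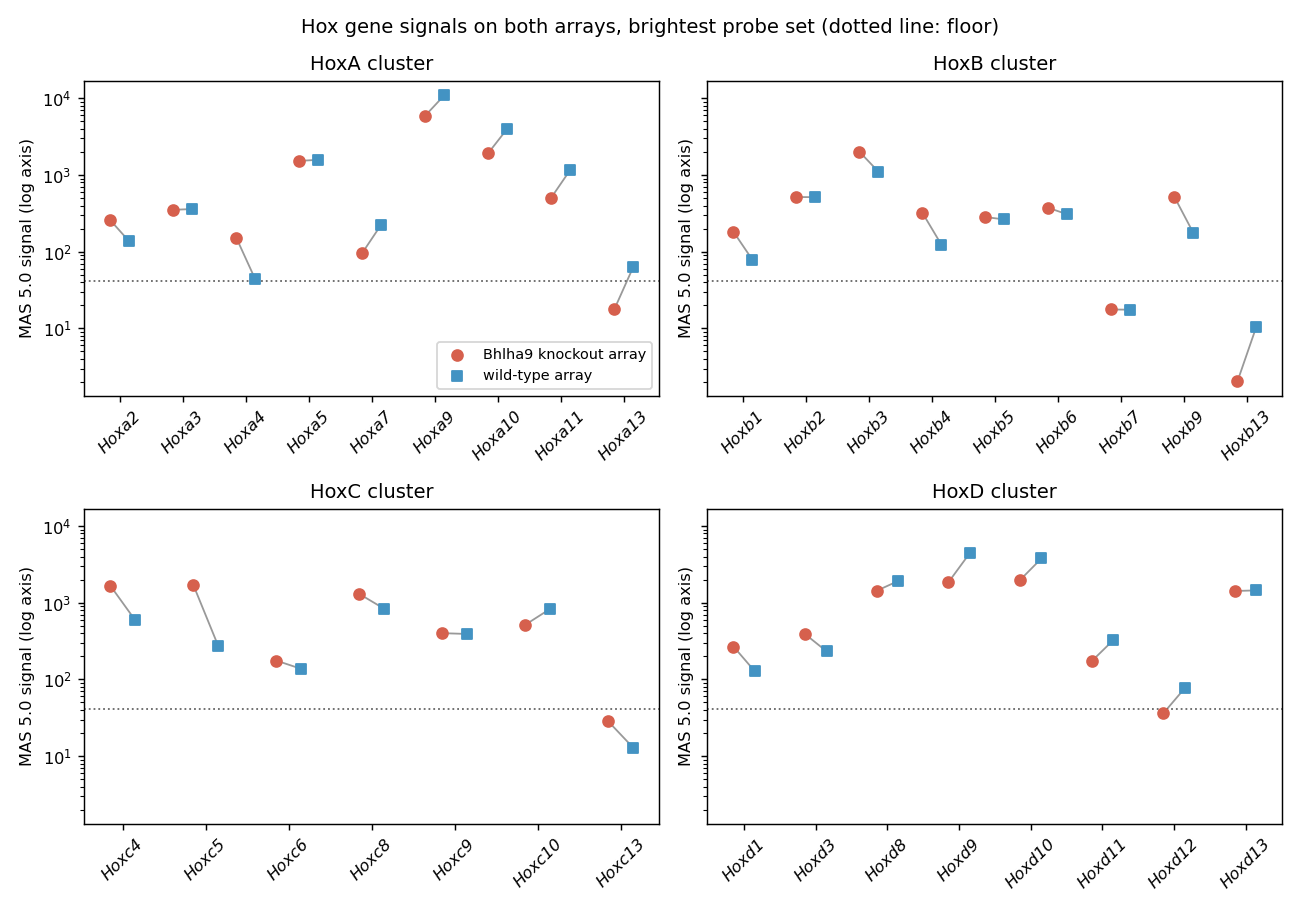
MAS 5.0 signal (log axis) of each of the 33 Hox genes by its brightest probe set, with the knockout array as circles at left and the wild-type array as squares at right, in a panel per cluster. The dotted line is the knockout floor of 41.8; lines slope down to the right where the knockout signal was higher, as for Hoxc5, and up where it was lower, as for Hoxd9.

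Hoxb7, Hoxb13 and Hoxc13 were under the floor on both arrays and have no ratio. Hoxb8 and Hoxd4 are read only by probe sets that also carry a neighbour's symbol and are no members. The probe set for Hoxb8 and Hoxb7 gave 304 on the knockout array and 238 on the wild-type array, a log2 ratio of 0.35. The pair for Hoxd4 and Hoxd3 gave 0.46 and -0.45, in opposite directions.

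By cluster, HoxB and HoxC were higher and HoxA and HoxD lower at the median. The 7 detected HoxB genes were all positive, with a median log2 ratio of 0.86 and 3 at least 2-fold higher. The 6 detected HoxC genes had a median of 0.50, with 5 positive and 2 at least 2-fold higher. The 9 HoxA genes had a median of -0.59, with 1 at least 2-fold higher and 3 at least 2-fold lower, and the 8 HoxD genes had a median of -0.65, with 1 in each direction. Those medians rest in part on the bounds of Hoxa13 and Hoxd12, and over genes detected on both arrays they were -0.46 for 8 HoxA genes and -0.42 for 7 HoxD genes. The HoxB median moved between 0.28 and 1.04 over the settings tried. Cluster and number overlapped. All 9 HoxA and HoxD genes of groups 9 to 13 had negative ratios, with a median of -0.91 (-0.94 over the 7 detected on both arrays, the signs of Hoxa13 and Hoxd12 being fixed), although Hoxd13 turned positive with median centring (0.032) and with the mean of its probe sets (0.036). The 3 detected HoxB and HoxC genes of those groups were at 1.56, 0.034 and -0.69.

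Several probe sets were detected for 10 Hox genes, and in 4 of these, Hoxa9, Hoxa10, Hoxb3 and Hoxc5, all had the same sign, although in Hoxc5 the detection rule fixed 2 of the 3. In Hoxa3, Hoxa5, Hoxd8 and Hoxd13 the signs differed around zero, with no ratio larger in size than 0.42. The signs also differed in Hoxb4, whose ratios lay 1.78 apart on the log2 scale, and in Hoxc6, 0.75 apart. Sizes differed among probe sets of 1 sign as well, by 1.49 in Hoxc5, 1.41 in Hoxb3 and 0.92 in Hoxa10.

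Antisense transcripts of the clusters were chosen after their values were seen. Hoxa11os gave 723 on the knockout array and 1646 on the wild-type array, a log2 ratio of -1.19 like that of Hoxa11. Hoxb5os gave 3789.9 on the knockout array and 690.2 on the wild-type array, a ratio of 2.46, while Hoxb5 itself was at 0.10. Hoxd3os1 was at -0.76 by its brighter probe set and at 0.67, a bound, by its dimmer one.

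Genes that flank the clusters did not pass 2-fold by their brightest probe sets. Of 14 listed neighbours with a probe set 12 were detected, 0 in either direction past 2-fold, with a median log2 ratio of 0.20. A count of 0 is near the share over all detected genes, 4.15% higher and 2.65% lower. Skap2, beside the low-numbered end of HoxA, had the highest ratio at 0.84, and its other probe sets gave 1.01 and 1.001, just past 2-fold. Evx1, a homeobox gene beyond Hoxa13, was at -0.45, and Evx2, beyond Hoxd13, was not detected in wild-type tissue and was at least 1.20-fold higher.

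TALE homeodomain proteins bind DNA together with Hox proteins. Of 9 listed genes 7 were detected and 0 passed 2-fold in either direction, with 5 positive ratios and a median of 0.45. That count is near the share over all detected genes, 4.15% higher and 2.65% lower. Meis2, which marks the proximal limb bud, gave 4349 on the knockout array and 2762 on the wild-type array, a log2 ratio of 0.65, and Meis1 was at 0.48. Meis3 was highest at 0.96, from signals of 84.3 on the knockout array and 43.3 on the wild-type array. Pbx3 was at 0.27 and Pbx2 at -0.27.

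Genes known to act upstream of Hox expression went both ways. Of 26 listed 21 were detected, with 2 at least 2-fold higher (9.52%, beside 4.15% of all detected genes), 3 at least 2-fold lower (14.3%, beside 2.65%) and a median log2 ratio of 0.037. The higher genes were Aldh1a2, which makes retinoic acid, at 1121 on the knockout array and 404 on the wild-type array, a log2 ratio of 1.47, and Shh, the posterior signal that sustains late HoxD expression, at 1.52. The lower genes were Cyp26b1, which breaks down retinoic acid, at 377 on the knockout array and 2048 on the wild-type array, a ratio of -2.44, the receptor Rarg at -1.22 and the zinc finger gene Zbtb16 at -1.14. Gli3, which restrains posterior HoxD genes in the anterior limb bud, was at -0.95, and at -0.91 and -0.028 by its dimmer probe sets. Also listed, Gli1 was at -0.46 and Ptch1 at 0.31, with the dimmer Ptch1 probe set at -0.52. Which cells gave the Shh signal was not tested. The Polycomb genes Ezh2, Eed and Suz12 were at -0.17, 0.29 and 0.12, and Ring1, Cbx2, Rnf2 and Bmi1 at -0.67, -0.62, 0.65 and 0.60. The caudal genes Cdx1, Cdx2 and Cdx4 were under the floor on both arrays.

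Markers of the limb bud were lower on the knockout array, and those of tissues beside it were mostly higher. All 11 limb mesenchyme markers were detected on both arrays, and all had negative ratios. At least 2-fold lower were 6 (54.5%, beside 2.65% of all detected genes). The summed signal was 19497 on the knockout array and 35827 on the wild-type array. Lmx1b, Msx1, Lhx9 and Shox2 had ratios of -1.92, -1.37, -1.34 and -1.31. Prrx1 and Twist1 were lower by less, at -0.33 each, and the other Prrx1 probe sets lay between -1.12 and -0.36. The forelimb gene Tbx5 was at -0.60 and the hindlimb genes Tbx4 and Pitx1 at -1.23 and -1.07. Their dimmer probe sets gave -1.33 for Tbx5, -1.59 for Tbx4 and -1.77 for Pitx1. Of 20 neural tube and neuron markers 17 were detected, 10 of them on the knockout array only. At least 2-fold higher were 10 (58.8%, beside 4.15% of all detected genes). Nefl, Sox2, Nefm and Stmn2 had ratios of 2.98, 2.71, 2.698 and 2.62. Irx3, which the limb bud also expresses, ran the other way at 1820.5 on the knockout array and 3341 on the wild-type array. The summed signal of the list was 7124 on the knockout array and 4367 on the wild-type array, and without Irx3 5304 on the knockout array and 1026 on the wild-type array. Pax6, Neurog2 and Neurod1 were not detected in wild-type tissue, and Nkx2-2 and Mnx1 in neither. The 10 markers detected through the knockout array alone could only have positive ratios.

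Of 13 somite markers 12 were detected, with a summed signal of 5811 on the knockout array and 4701 on the wild-type array. At least 2-fold higher were 5 (41.7%, beside 4.15% of all detected genes) and at least 2-fold lower 0 (beside 2.65%). Pax9 and Myod1, the latter among the 5, were detected on the knockout array only and could only have positive ratios. Ratios were positive for 10 of the 12 and negative for 2. Myog, Foxc2, Myf5 and Uncx had ratios of 2.05, 1.44, 1.29 and 1.14. Meox2 and Tcf15 were level at 0.069 and -0.025. Tbx18 ran the other way at -0.53, and at -0.71 by its other probe set. All 10 liver and gut markers were at least 2-fold higher, beside 4.15% of all detected genes. Of these, 9 were not detected in wild-type tissue and could only have positive ratios. The summed signal was 32180.2 on the knockout array and 185 on the wild-type array. Afp, Ttr, Alb and Ambp were at least 463-fold, 101-fold, 50.3-fold and 42.9-fold higher. Neural tube and somites transcribe Hox genes of all numbers. The part of these tissues in the Hox ratios was not tested, and tissue make-up and genotype cannot be told apart with 1 array each.

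**Figure D4:**
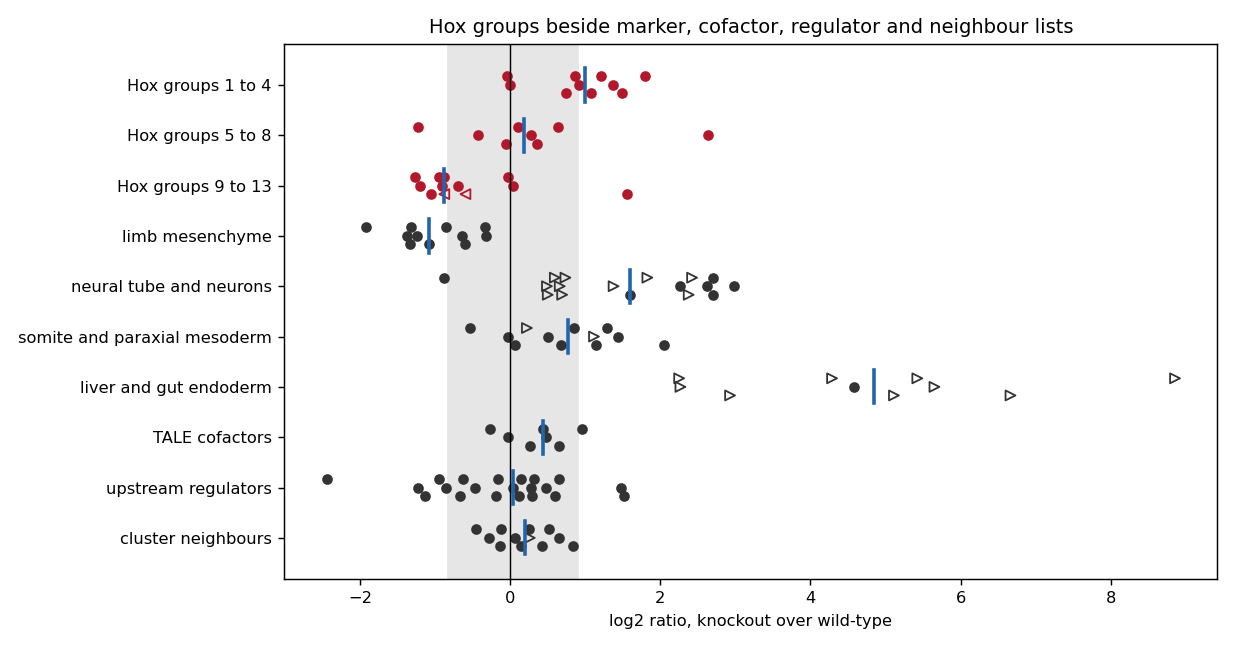
Log2 ratio of knockout over wild-type signal (x axis) for Hox genes in 3 number ranges (red) and the genes of 7 other lists (black), with blue bars at each median, open triangles for bounds and a grey band for the central 90% of all detected genes. The median of Hox groups 9 to 13, at -0.88, lies on the side of the limb mesenchyme list, and that of groups 1 to 4, at 0.998, on the side of the somite and neural lists.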

How the data were processed

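Total RNA of whole limb buds was labelled with a 3′ IVT kit and hybridised to Affymetrix Mouse Genome 430 2.0 arrays, 1 array per genotype, per the labels' protocols. Per the series' design text, the authors summarised the arrays with MAS 5.0, and the deposited values are intensities on a linear scale, 1 per probe set. The 2% trimmed mean over all probe sets was 500.0 on both arrays, so each array had been scaled on its own, and a change in make-up shifts all other genes slightly.

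The 64 control probe sets were set aside. Symbols came from the platform annotation and were matched by gene identifier to RefSeq (GRCm38.p6), where all 33 Hox genes matched. Signals were raised to the floor at the 40th percentile, log2 ratios were taken as knockout minus wild-type, and a gene was called at 2-fold. No test was run, since each genotype has 1 array, and precision is limited by the number of arrays. The steps were tested on simulated data. Every Hox gene above the floor on at least 1 array was named, and up to 4 genes of each other list where they passed 2-fold. Some others (Skap2, Evx1, Evx2, Gli3, Zbtb16, Irx3, Nkx2-2, Mnx1, Pax6, Neurog2, Neurod1, Tbx5, Tbx4, Pitx1, Prrx1, Twist1, Meox2, Tcf15, Tbx18, Pax9, Myod1 and Meis, Pbx, Polycomb and Cdx genes) were named after their values were seen. Gli1 and Ptch1 were likewise named after their values were seen. The members and lists were chosen with earlier results of these data known. Alternatives covered scaling, floor, pseudocount, threshold and choice of probe set. Quantile and cyclic loess normalization were run in limma 3.58.1 (R 4.3.3), and all other steps in Python 3.11.15 (numpy 2.4.6, pandas 2.3.3).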

Additional observations from a re-analysis of the deposited data

How the results depend on the processing

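The 11 Hox genes past 2-fold kept their sign in all 87 values computed under the alternatives, and 79 of these stayed past 2-fold. The 8 others belonged to Hoxa7, Hoxa10, Hoxb1, Hoxb4 and Hoxd1. Hoxa4 was not detected on either array with a floor at the 60th percentile, so it lost its ratio and its call there and is not in that count. Hox genes at least 2-fold higher numbered 3 and probe sets 4 with a floor at the 60th percentile, which gave a median log2 ratio of 0.67 for groups 1 to 4 and 0.28 for HoxB. With a floor at the 20th percentile the HoxA median was -0.87 and the HoxB median 0.28, and with the mean over detected probe sets the HoxB median was 0.48. At 1.5-fold, 11 genes were higher and 10 lower, and 12 probe sets were lower. At 3-fold, 2 genes were higher and 0 lower, and 4 probe sets were higher and 1 lower. A higher floor raises low signals and a stricter threshold admits fewer genes by construction, and other causes were not tested. The median for groups 9 to 13 stayed between -0.89 and -0.79. Signs turned for Hoxa3, Hoxa5, Hoxc6 and Hoxd13 only, all under 2-fold. The median of all genes detected on both arrays was -0.0097 as deposited, 0.049 after median centring, 0.032 after quantile and 0.031 after loess normalization, and higher genes made up 61.0%, 67.7%, 69.3% and 71.5% of all genes past 2-fold at those settings. No paired analysis was possible because each genotype has 1 array, and no array could be left out. Signals near the floor limit Hoxa4, Hoxa13, Hoxb1 and Hoxd12.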
